A study of Homo sapiens with 24 samples.

Results

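Small non-coding RNAs were taken from the deposited table by name: every symbol starting with SNORD, SNORA, SCARNA, RNU, RNY, RN7S, RNA5S or VTRNA, with RMRP and RPPH1, kept where the mean over all 24 libraries was at least 10. Of 38849 genes in the table, 3707 had such a name, 768 of them were above 0 in at least 1 library, and 76 reached that mean. The 76 comprise 14 box C/D small nucleolar RNAs (snoRNAs), 14 box H/ACA snoRNAs, 4 Cajal body RNAs, 10 spliceosomal U RNAs of which 5 are U6 copies with names ending in P, 1 5S ribosomal RNA, 29 RNAs of the 7SL family of which 26 are copies with names ending in P, 3 Y RNAs and RMRP. No 7SK, U7 or vault RNA reached the mean, and RN7SK was listed at 0 in every library. Although many of them are nuclear, 7SL, Y and 5S RNAs are known to work in the cytoplasm, so the set is called small non-coding RNAs here.

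The members were selected on their level over all libraries, which is therefore a description. The members just inside were RMRP and RN7SL48P, with mean normalized counts of 10.2 each, and RNU2-2P with 9.99 and SNORD21 with 9.75 lay just outside. A mean of at least 10 was reached by 41 members in all 8 groups, and 35 members fell short of it in at least 1 group. Over the 12 libraries of a line, 59 members reached it in both lines, 0 in RBMS3 cells alone and 17 in LacZ cells alone. Those 17 entered through the line in which they were higher. They are SNORA7A, SNORA24, SNORA44, SNORA79, SNORA80A and SNORA81, SNORD42A and SNORD58A, SCARNA18, RNU6ATAC, RNU6-15P and RNU6-16P, RMRP and 4 of the 7SL copies. No test between the lines is given for them singly, and counts are also given without them. The counts and medians over members support nothing further.

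The libraries came from HMLE cells, an immortalized line of human mammary epithelial cells, that over-expressed either RBMS3, a protein that binds RNA, or LacZ, a bacterial enzyme gene that served as the control. Both lines received actinomycin D, which blocks transcription, at 10 µg/mL, and were sampled after 0, 90, 180 and 360 min, which gives 8 groups of 3 libraries. The stated question was which genes depend on RBMS3 for their stability. The labels do not give the vector or its promoter, whether a line is a single clone, or whether the replicates were grown as separate cultures. The p-values therefore cover only the spread among the 3 libraries, and that spread may be technical.

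Box C/D and box H/ACA snoRNAs guide methylation and pseudouridylation of ribosomal RNA, and most human ones are cut from the introns of host genes, while the U3 (SNORD3), U8 (SNORD118) and U13 (SNORD13) snoRNAs take part in processing ribosomal RNA. Cajal body RNAs guide the same modifications on spliceosomal RNAs. RNA polymerase III makes 5S, 7SL, Y, U6 and MRP RNA, and RNA polymerase II makes most other members. The 3' tag libraries are primed with oligo(dT), and the mature forms of these RNAs carry no long poly(A) tail, so the values are the tags that reached the library and not the full amount of each RNA. What share of each RNA was captured was not tested. Of 76 members 44 lie inside a gene on the same strand. Their tags may also come from that gene's RNA, which was not tested.

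Sequences of members on which the results turn are printed as the transcript's own strand, from GENCODE 29 (GRCh38), whose transcript and length equalled those in the deposited transcript files for 76 of 76 members. The sources used here do not name the authors' genome build. Shown are SNORA62, a box H/ACA snoRNA that was lower in RBMS3 cells, and SCARNA22, a Cajal body RNA that rose in RBMS3 cells by 90 min. SNORA62 lies in RPSA, within an exon of one of its transcripts (chr3:39411054-39411206, plus strand), and SCARNA22 lies in an intron of NSD2 (chr4:1974636-1974760, plus strand). The capitals in both mark ACA, 3 bases from the end. Searched on the transcript strand, box C (TGATGA) followed by box D (CTGA) was present in 12 of 14 box C/D members (85.7%) and in 76.4% of 288 SNORD transcripts, and ACA 3 bases from the end was present in 11 of 14 box H/ACA members (78.6%) and in 75.2% of 149 SNORA transcripts.
SNORA62: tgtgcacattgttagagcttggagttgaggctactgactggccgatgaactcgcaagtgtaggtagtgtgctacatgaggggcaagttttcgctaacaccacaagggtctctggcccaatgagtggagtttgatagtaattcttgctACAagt
SCARNA22: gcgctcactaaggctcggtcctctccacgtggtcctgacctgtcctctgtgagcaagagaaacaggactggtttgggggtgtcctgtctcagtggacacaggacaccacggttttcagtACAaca

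The transcripts of RN7SL1 and RN7SL2, the 7SL RNAs of the signal recognition particle, are 98.3% identical. RN7SL3 is 97.7% identical to RN7SL1, so reads of the 3 could be split between them and their separate values are uncertain. RN7SL121P, in an intron of GNG7, is an example of the copies named P, and is 59.2% identical to RN7SL1. At least 10 A in a row were present in 15 of 29 members of the 7SL family (51.7%) and in 22 of 651 other RN7SL transcripts (3.38%).

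U1 (RNU1-1, chr1:16514122-16514285, minus strand) is shown with the stretch that pairs with the 5' splice site in capitals. The U6 copy RNU6-37P, in an intron of KIF1B, differs from RNU6-5P in 2 bases. The 5S RNA RNA5S1 shares its sequence with 15 other symbols, RNU1-1 with 5, RNU6-5P with 6 and RNU6-37P with 1, so the value of each is uncertain as that of 1 locus.
RNU1-1: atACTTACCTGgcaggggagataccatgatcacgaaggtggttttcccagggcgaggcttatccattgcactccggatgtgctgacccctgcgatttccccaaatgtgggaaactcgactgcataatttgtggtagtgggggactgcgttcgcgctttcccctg

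Values are normalized counts as the authors deposited them, which sum to between 6638190 and 8080430 per library. RBMS3 itself ranged over 174 to 358 in RBMS3 libraries and 27.6 to 165 in LacZ libraries, and the labels do not say whether the introduced copy carries the 3' end that these libraries read. The epithelial marker EPCAM ranged over 0 to 13.6 in RBMS3 libraries and 1687 to 2263 in LacZ libraries, and the mesenchymal marker VIM over 14268 to 21068 in RBMS3 libraries and 3181 to 5558 in LacZ libraries. CDH1, KRT18 and TP63 were also lower in RBMS3 libraries without overlap, while KRT5, KRT14 and KRT17 overlapped. KRT5 ranged over 664 to 2830 in RBMS3 libraries and 1503 to 4784.5 in LacZ libraries. KRT14 ranged over 723 to 6168 and 2133 to 3557, and KRT17 over 648 to 3086 and 2598.5 to 4057, in the same order. The 7 epithelial or basal markers summed to 2694 to 12443 in RBMS3 libraries and 12963 to 18850 in LacZ libraries, and none of the 7 was at 0 throughout. The part of this difference between the lines in the results below was not tested. In such bulk samples fewer cells of a type and less RNA per cell cannot be told apart. Pearson's r across genes between libraries of the same group was 0.909 to 0.955.

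Differences in log2(normalized count + 1) are given ± SE, and this scale understates the change of low members. An RNA rose or fell where limma, fitted to all 24 libraries and 12096 genes, gave a Benjamini-Hochberg adjusted p under 0.05. Before actinomycin D, 5 of 76 members were higher and 18 lower in RBMS3 than in LacZ cells, where 18.6% of all genes were higher and 18.9% lower, 37.5% together. With libraries scaled to ribosomal protein genes the split was 3 higher and 26 lower, and the median of all genes lay at −0.36. At 90 min 4 members were higher and 6 lower (14.9% and 15% of all genes, 29.8% together), a split that became 1 and 8 under the ribosomal protein scaling. At 180 min 3 were higher and 10 lower (16.2% and 16.8% of all genes, 33.1% together). At 360 min 1 was higher and 21 were lower (17.5% and 17.7% of all genes, 35.2% together). The median over the 76 members was 0.06 at 0 min, −0.19 at 90 min, −0.59 at 180 min and −0.89 at 360 min, beside medians of all genes of 0.01, −0.02, −0.02 and −0.02. The 3 RBMS3 libraries all lay below the 3 LacZ libraries for 20 members at 0 min and for 30 at 360 min, and all above for 7 at 0 min and 2 at 360 min. Over all genes 22.5% lay below and 22.3% above in this way at 0 min (44.8% together), and 24.5% below and 24.2% above at 360 min (48.7% together). Among the 59 members that did not enter through LacZ cells alone, 5 were higher and 13 lower before actinomycin D. At 360 min 1 of the 59 was higher and 16 were lower. The median over the 59 was 0.14 at 0 min, −0.09 at 90 min, −0.46 at 180 min and −0.44 at 360 min. The median over all 76 is thus partly set by how members entered.

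Within RBMS3 cells 13 members rose and 7 fell by 90 min (7.99% and 6.52% of all genes, 14.5% together), 15 rose and 12 fell by 180 min (13.5% and 12.4%, 25.9% together), and 16 rose and 20 fell by 360 min (19.1% and 18.6%, 37.6% together). Within LacZ cells 10 rose and 3 fell by 90 min (3.44% and 2.74% of all genes, 6.18% together), 13 rose and 6 fell by 180 min (7.75% and 6.87%, 14.6% together), and 20 rose and 7 fell by 360 min (14.9% and 13.6%, 28.5% together). All values are relative to the other RNA of a library, so a rise under actinomycin D means a larger share of it. Scaled to ribosomal protein genes, the split in RBMS3 cells was 15 and 18 at 180 min and 11 and 30 at 360 min, and that in LacZ cells was 6 and 8 at 90 min, 9 and 11 at 180 min, then 14 and 19 at 360 min. Scaled to equal sums, it was 15 and 18 in RBMS3 cells at 180 min, 13 and 27 in RBMS3 cells at 360 min and 16 and 12 in LacZ cells at 360 min. The median of all genes under the ribosomal protein scaling was −0.14 at 180 min and −0.40 at 360 min in RBMS3 cells, and −0.24, −0.33 and −0.52 for the 3 later times in LacZ cells. The comparisons between lines at 0 min and the changes with time share the 0 min libraries, and their values stand side by side.

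The share of the table's summed normalized count held by the 76 members was 0.205%, 0.210%, 0.205% and 0.177% in RBMS3 cells at 0, 90, 180 and 360 min, and 0.202%, 0.205%, 0.284% and 0.282% in LacZ cells at the same times (means, n = 3). At 360 min the libraries lay between 0.163% and 0.184% in RBMS3 cells and between 0.230% and 0.313% in LacZ cells, without overlap.

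**Figure D1:**
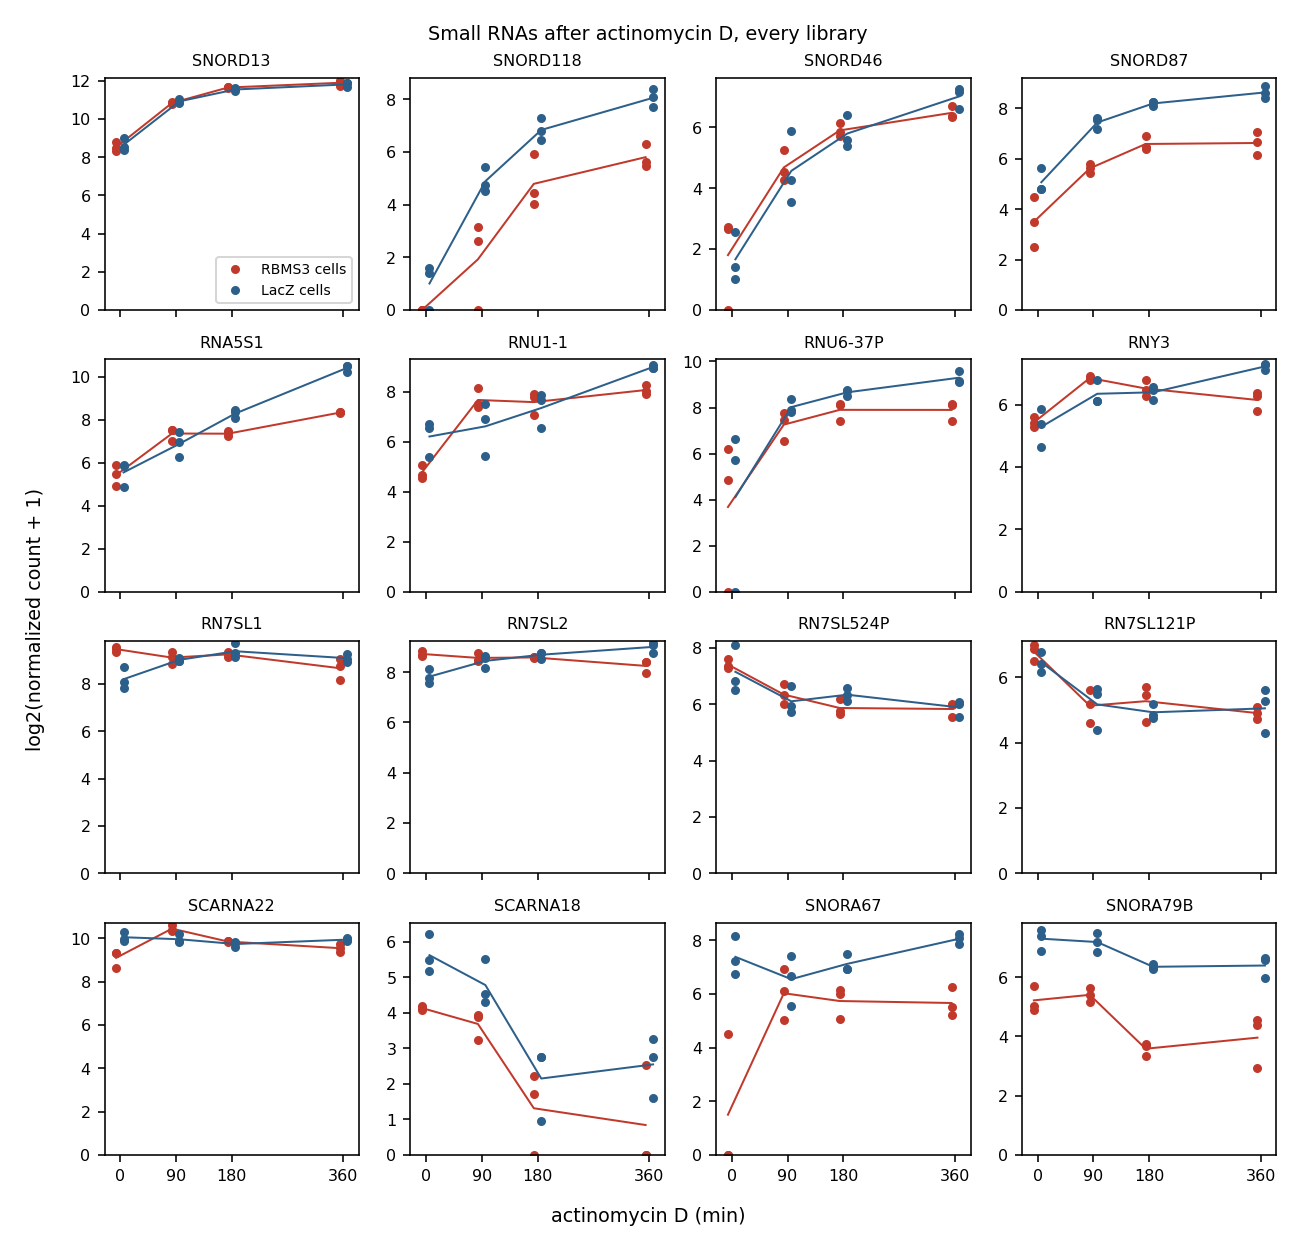
Normalized counts of 16 small RNAs, as log2(normalized count + 1), against minutes of actinomycin D. Each point is a library, lines join the means of 3 libraries, and RBMS3 cells are drawn in red just left of LacZ cells in blue. SNORD13 follows the same course in both lines, RNA5S1 separates from 180 min, and SNORA79B is lower in RBMS3 cells throughout.

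Among box C/D snoRNAs, U13, U8 and SNORD46 were higher at 360 min than at 0 min in every library of both lines. At 360 min 7 of 14 had risen and 4 had fallen in RBMS3 cells, and the 8 that passed in LacZ cells had all risen, with median changes over the 14 of 1.76 in RBMS3 cells and 1.37 in LacZ cells. Of all genes 19.1% rose and 18.6% fell in RBMS3 cells, and 14.9% rose in LacZ cells. SNORD13 (U13, which pairs with ribosomal RNA precursors) had 316, 355 and 436 at 0 min, 1832, 1739 and 1912 at 90 min, 3121, 3221 and 3244 at 180 min, then 3429, 3992 and 4003 at 360 min in RBMS3 cells. In LacZ cells it had 333, 516 and 367 at 0 min, 1838, 2093 and 1893 at 90 min, 3124, 3017 and 2807 at 180 min, then 3832, 3727 and 3231 at 360 min. Within each line the libraries of all 3 later times lay above those at 0 min, and the lines overlapped at all 4 times. By 360 min it had changed by 3.37 ± 0.13 (adjusted p = 1.2e-13) in RBMS3 cells and 3.17 ± 0.13 (adjusted p = 5.0e-13) in LacZ cells, and no difference between the lines passed the test at any time.

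SNORD118 (U8, needed to make the large ribosomal subunit RNAs) was listed at 0 in all RBMS3 libraries at 0 min, and then had 0, 5.09 and 7.97 at 90 min, 15.4, 20.4 and 59.1 at 180 min, and finally 78.7, 43.0 and 48.4 at 360 min. LacZ cells had 1.66, 2.05 and 0 at 0 min, 21.9, 41.7 and 25.5 at 90 min, 154, 109.7 and 85.4 at 180 min, then 269, 335 and 206 at 360 min. From 90 min on every RBMS3 library lay below every LacZ library of the same time. The difference between the lines was -2.96 ± 0.65 (adjusted p = 0.0014) at 90 min, -2.05 ± 0.65 (adjusted p = 0.019) at 180 min and -2.25 ± 0.65 (adjusted p = 0.0099) at 360 min. The change within LacZ cells by 360 min was 7.05 ± 0.65 (adjusted p = 8.5e-08), and no fold is given for RBMS3 cells because the 0 min libraries were at 0. The 180 min difference lost its call with a pseudocount of 0.5, without RBMS3 replicate 1 or 2 at 180 min or without LacZ replicate 1 at 180 min (adjusted p up to 0.093). SNORD118 lies in an untranslated region of TMEM107, and whether its tags come from TMEM107 RNA was not tested. TMEM107 averaged 191 ± 22.0 at 0 min and 224 ± 36.3 at 360 min in RBMS3 cells. In LacZ cells it averaged 251 ± 15.8 and 311 ± 39.8 at these times (SD, n = 3 each).

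SNORD46, a guide of ribosomal RNA methylation, had 5.37, 5.66 and 0 at 0 min, 18.2, 22.0 and 36.9 at 90 min, 69.9, 56.2 and 50.9 at 180 min, then 80.6, 103 and 81.4 at 360 min in RBMS3 cells. LacZ cells had 1.66, 1.02 and 4.94 at 0 min, 18.1, 57.9 and 10.8 at 90 min, 46.7, 40.7 and 84.3 at 180 min, then 143, 152 and 95.9 at 360 min. The 360 min libraries lay above the 0 min libraries in both lines, with changes of 4.67 ± 0.63 (adjusted p = 6.9e-06) in RBMS3 cells and 5.34 ± 0.63 (adjusted p = 2.3e-06) in LacZ cells. Its values in the 2 lines overlapped at all 4 times, and no difference between lines passed.

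SNORD87 was lower in RBMS3 cells at all 4 times and rose in both lines. It had 21.5, 4.71 and 10.3 at 0 min, 53.7, 42.4 and 48.5 at 90 min, 118, 81.8 and 88.2 at 180 min, then 69.2, 101 and 133 at 360 min in RBMS3 cells. It had 26.5, 26.6 and 48.4 at 0 min, 142, 193 and 185 at 90 min, 302, 304 and 269 at 180 min, then 472, 383 and 339 at 360 min in LacZ cells. The lines did not overlap at any time, and differed by -1.57 ± 0.36 (adjusted p = 0.0016) at 0 min and -2.004 ± 0.36 (adjusted p = 1.7e-04) at 360 min. By 360 min the change was 3.12 ± 0.36 (adjusted p = 8.3e-07) in RBMS3 cells and 3.56 ± 0.36 (adjusted p = 2.9e-07) in LacZ cells. The 0 min difference lost its call with only the 2 groups in the fit (adjusted p = 0.1).

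The U3 copies take part in the first cuts of the ribosomal RNA precursor, and their listed values did not move alike. SNORD3A had 606, 558 and 729 at 360 min and 189, 157 and 130.4 at 0 min in RBMS3 cells, against 1494, 1069.8 and 1038 at 360 min and 260.2, 304 and 272 at 0 min in LacZ cells, and the 360 and 0 min libraries did not overlap in either line. The rise was 1.99 ± 0.29 (adjusted p = 1.6e-05) in RBMS3 cells and 2.09 ± 0.29 (adjusted p = 1.7e-05) in LacZ cells. SNORD3C had 687, 713 and 769.7 at 360 min and 2514, 2622 and 2461 at 0 min in RBMS3 cells, against 2953, 2477 and 1051 at 360 min and 3483, 4034 and 2509 at 0 min in LacZ cells. It fell in RBMS3 cells by 360 min, -1.81 ± 0.27 (adjusted p = 2.5e-05), while the change in LacZ cells, -0.73 ± 0.27 (adjusted p = 0.051), did not pass, and LacZ replicate 3 lay lowest of its group. At 360 min SNORD3C was lower in RBMS3 cells, a difference of -1.45 ± 0.27 (adjusted p = 2.9e-04). SNORD3B-1 rose by 360 min in both lines, 3.67 ± 1.27 (adjusted p = 0.027) in RBMS3 cells and 4.42 ± 1.27 (adjusted p = 0.012) in LacZ cells. Its RBMS3 call was lost with ribosomal protein scaling, without RBMS3 replicate 1 or 2 at 0 min or without RBMS3 replicate 1, 2 or 3 at 360 min (adjusted p up to 0.077). Its LacZ call was lost with only the 2 groups in the fit or without LacZ replicate 3 at 0 min (adjusted p up to 0.087). The copies share their first 77 bases, so reads could be split between them and the separate values are uncertain.

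SNORD26, a methylation guide carried by SNHG1, had 826, 1089 and 744 at 0 min, 741, 763 and 803 at 90 min, 691, 751 and 869.6 at 180 min, then 498, 665 and 603 at 360 min in RBMS3 cells and 651, 876 and 614 at 0 min, 713, 854 and 791 at 90 min, 1332, 946 and 987 at 180 min, then 1243, 996 and 857 at 360 min in LacZ cells. The lines overlapped at 0 and 90 min, and at 360 min every RBMS3 library lay below every LacZ library. It fell by 360 min in RBMS3 cells, -0.58 ± 0.17 (adjusted p = 0.011), and rose in LacZ cells, 0.53 ± 0.17 (adjusted p = 0.025), although under the ribosomal protein scaling the LacZ change was −0.024 (adjusted p = 0.934). The difference between the 2 changes was -1.11 ± 0.24 (adjusted p = 0.0063). SNORD89 fell by 360 min in RBMS3 cells, -1.16 ± 0.35 (adjusted p = 0.012), and its LacZ change of -0.05 ± 0.35 did not pass. The fall of SNORD26 in RBMS3 cells lost its call without RBMS3 replicate 2 at 0 min or without RBMS3 replicate 1 at 360 min (adjusted p up to 0.08). That of SNORD89 lost it without RBMS3 replicate 1 at 360 min (adjusted p = 0.077). The rise of SNORD26 in LacZ cells lost its call with equal sums, with ribosomal protein scaling, with only the 2 groups in the fit, without LacZ replicate 1 or 3 at 0 min or without LacZ replicate 1 at 360 min (adjusted p up to 0.93).

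**Figure D2:**
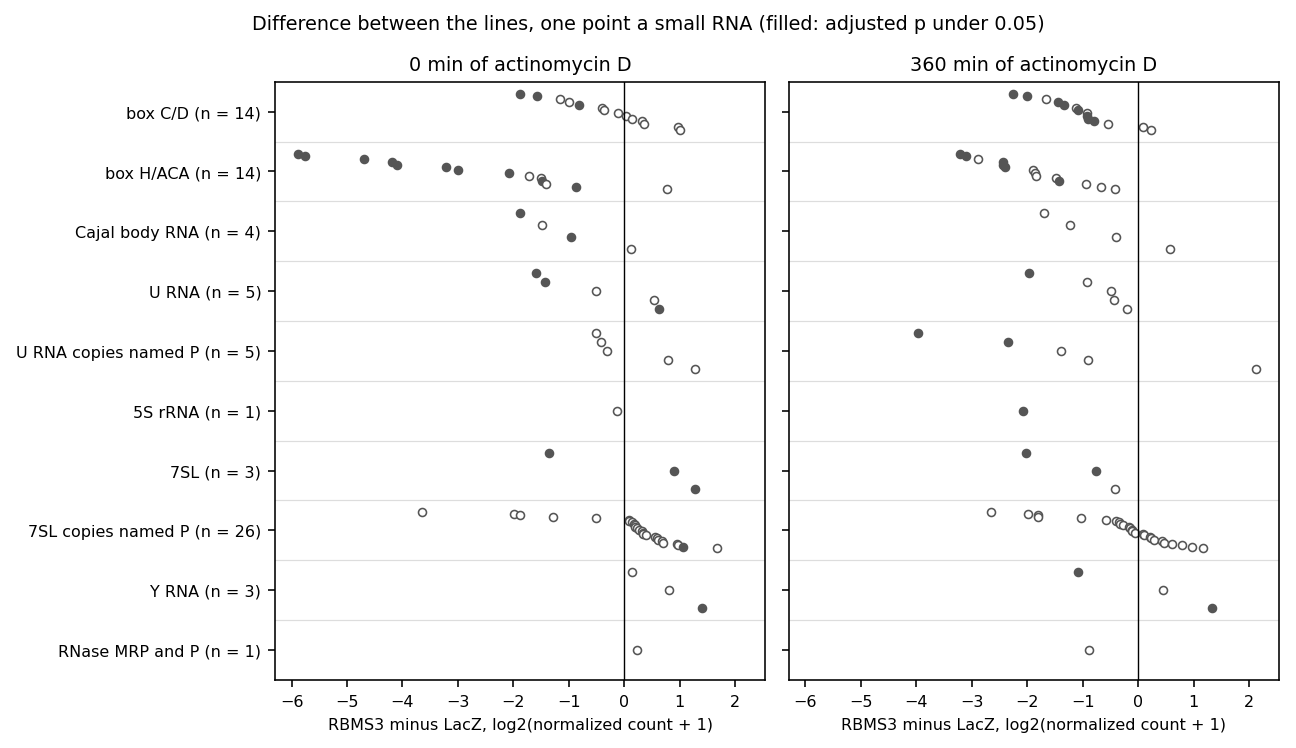
Difference between the lines, RBMS3 minus LacZ, on the log2(normalized count + 1) scale for each of the 76 small RNAs by class, at 0 min (left) and 360 min (right). Each point is 1 RNA, filled where the adjusted p was under 0.05. At 0 min 10 of 14 box H/ACA snoRNAs are filled and lie left of 0, and at 360 min 8 box C/D and 6 box H/ACA snoRNAs do. Of these box H/ACA snoRNAs, 4 at 0 min and 2 at 360 min entered through LacZ cells alone. Of all genes 18.9% were lower at 0 min and 17.7% at 360 min.

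Box H/ACA snoRNAs were lower in RBMS3 cells before actinomycin D. Of 14 members 10 passed at 0 min, all of them lower, with a median over the 14 of −2.54, and SNORA31 alone lay above 0, at 0.78, without passing. The members that passed at later times were also all lower, 3 at 90 min, 2 at 180 min and 6 at 360 min. Of all genes 18.9% were lower at 0 min, 15% at 90 min, 16.8% at 180 min and 17.7% at 360 min. The box H/ACA counts at 90 and 180 min lie near these shares, and nothing is read from them alone. The count was also made without the 6 box H/ACA members that entered through LacZ cells alone. Then 6 of 8 were lower at 0 min, with a median of −1.79. At 90 min 1 of 8 was lower, at 180 min 1 of 8 and at 360 min 4 of 8. SNORA79B had 28.98, 32.1 and 51.3 at 0 min, 41.6, 34.8 and 49.3 at 90 min, 12.3, 11.9 and 9.10 at 180 min, then 6.64, 19.9 and 22.7 at 360 min in RBMS3 cells. It had 168, 195 and 118.6 at 0 min, 147, 179 and 116 at 90 min, 86.6, 76.6 and 79.7 at 180 min, then 100.2, 94.3 and 61.3 at 360 min in LacZ cells. The lines did not overlap at any time. The differences were -2.08 ± 0.36 (adjusted p = 9.3e-05) at 0 min, -1.78 ± 0.36 (adjusted p = 6.3e-04) at 90 min, -2.77 ± 0.36 (adjusted p = 3.7e-06) at 180 min and -2.44 ± 0.36 (adjusted p = 1.7e-05) at 360 min.

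SNORA67, in the EIF4A1 gene, had 0, 0 and 21.6 at 0 min, 123, 67.8 and 31.9 at 90 min, 63.0, 69.8 and 32.7 at 180 min, then 75.9, 36.7 and 44.3 at 360 min in RBMS3 cells. LacZ cells had 150.0, 286 and 108 at 0 min, 102, 170.2 and 46.1 at 90 min, 122, 179.7 and 122 at 180 min, then 304, 269 and 231 at 360 min. At 0 min 2 of 3 RBMS3 libraries were listed at 0 and the third lay below all LacZ libraries, and from 90 min on every RBMS3 library lay above those at 0 min. The difference between lines was -5.89 ± 0.82 (adjusted p = 7.9e-06) at 0 min and -0.52 ± 0.82 at 90 min, where it did not pass, and SNORA67 rose by 90 min in RBMS3 cells, 4.53 ± 0.82 (adjusted p = 6.5e-04).

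SNORA62 had 18.2, 3.77 and 7.19 at 0 min, 1.01, 9.32 and 28.98 at 90 min, 25.3, 11.9 and 6.37 at 180 min, then 2.84, 8.38 and 11.3 at 360 min in RBMS3 cells. It had 94.5, 92.1 and 67.2 at 0 min, 52.5, 25.5 and 7.85 at 90 min, 12.5, 18.9 and 14.8 at 180 min, then 54.2, 67.3 and 72.8 at 360 min in LacZ cells. The lines were apart at 0 and 360 min and overlapped at 90 and 180 min. The difference was -3.22 ± 0.79 (adjusted p = 0.0028) at 0 min and -3.10 ± 0.79 (adjusted p = 0.0041) at 360 min. SNORA12, which is carried by CWF19L1, had 54.7, 74.5 and 58.5 in RBMS3 cells and 110.2, 99.3 and 137 in LacZ cells at 0 min, without overlap. The difference was -0.87 ± 0.26 (adjusted p = 0.011) at 0 min and -1.42 ± 0.26 (adjusted p = 2.1e-04) at 360 min. The call at 0 min was lost without LacZ replicate 3 at 0 min (adjusted p = 0.053).

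SNORA7A, in RPL32, had 8.59, 9.43 and 19.5 in RBMS3 cells and 77.9, 141 and 91.9 in LacZ cells at 0 min. It was listed at 0 in all LacZ libraries at 180 min. By 360 min no box H/ACA member passed as lower in LacZ cells, and the lowest change over the 14 was −1.58. The 180 min zeros of SNORA7A therefore did not last, and their source was not tested. SNORA44, in SNHG12, had 3.22, 0 and 1.03 in RBMS3 cells and 39.8, 32.8 and 29.7 in LacZ cells at 0 min. Both are among the members that entered through LacZ cells alone, so their lower values in RBMS3 cells are a description. SNORA11F differed by -1.49 ± 0.35 (adjusted p = 0.0019) at 0 min, a call lost with only the 2 groups in the fit (adjusted p = 0.053). For SNORA11F the lines did not overlap at 0 min, where 22.5% of all genes lay below in this way. SNORA4, in EIF4A2, was listed at 0 in all 3 RBMS3 libraries at 0 min, where LacZ cells had 43.9, 52.2 and 65.2. SNORA81, also in EIF4A2 and named after its values were seen, was listed at 0 in the same RBMS3 libraries, where LacZ cells had 42.3, 22.5 and 15.8. SNORA81 also entered through LacZ cells alone. Each of the 2 was at 0 in at least 1 later RBMS3 library at every time and in LacZ replicate 1 at 360 min.

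**Figure D3:**
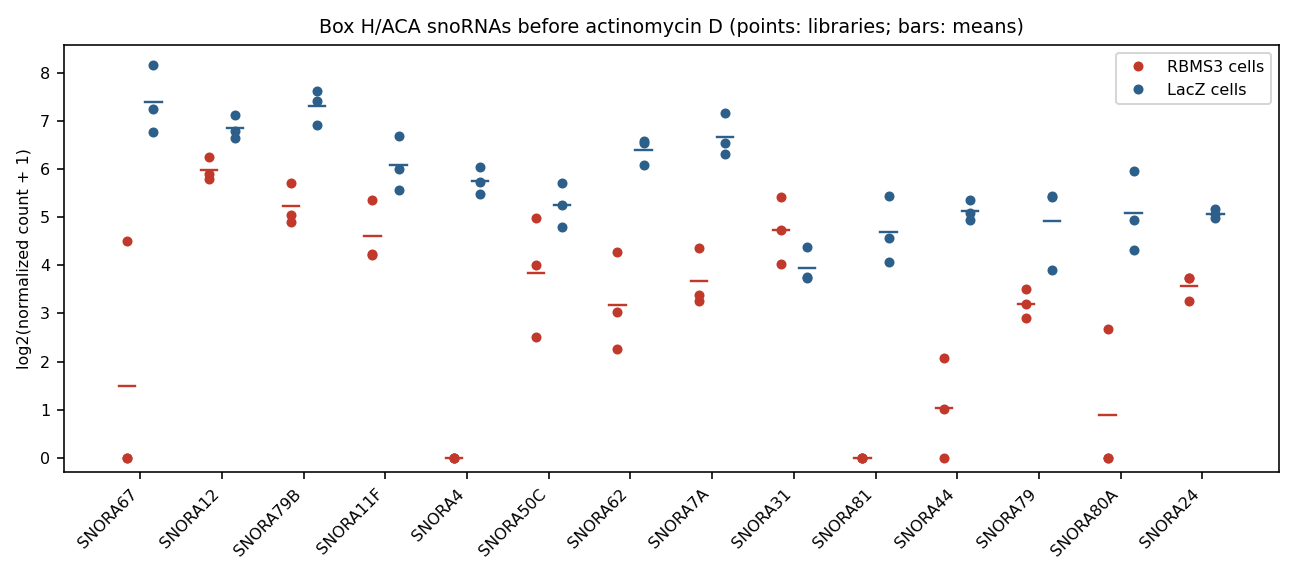
Box H/ACA snoRNAs before actinomycin D, as log2(normalized count + 1), with RBMS3 cells left of LacZ cells for each RNA. Points are libraries and bars are means of 3 libraries. SNORA4 and SNORA81 lie at 0 in all 3 RBMS3 libraries, and SNORA31 is the only member whose RBMS3 mean is the higher. SNORA81 is among the members that entered through LacZ cells alone.

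Cajal body RNAs did not move alike. SCARNA22 had 397, 651 and 638 at 0 min, 1316, 1319.7 and 1579.9 at 90 min, 947, 898 and 931 at 180 min, then 663, 847 and 747 at 360 min in RBMS3 cells. It had 1012, 1249 and 949.8 at 0 min, 934, 1164 and 908 at 90 min, 913, 877 and 780.1 at 180 min, then 1001, 1024 and 933 at 360 min in LacZ cells. RBMS3 libraries lay below all LacZ libraries at 0 min and above them at 90 min. The difference was -0.95 ± 0.16 (adjusted p = 5.2e-05) at 0 min and 0.49 ± 0.16 (adjusted p = 0.021) at 90 min, and the rise by 90 min in RBMS3 cells was 1.35 ± 0.16 (adjusted p = 4.1e-06). The 90 min difference lost its call with ribosomal protein scaling, without RBMS3 replicate 3 at 90 min or without LacZ replicate 1 or 3 at 90 min (adjusted p up to 0.096). SCARNA9, carried by CEP295, had 327, 214 and 299 in RBMS3 cells and 155, 149 and 118 in LacZ cells at 90 min, without overlap. It was higher in RBMS3 cells by 0.98 ± 0.23 (adjusted p = 0.0024) at 90 min and 0.94 ± 0.23 (adjusted p = 0.0031) at 180 min, and rose by 1.11 ± 0.23 (adjusted p = 0.0019) by 90 min in RBMS3 cells. SCARNA20 rose by 90 min in RBMS3 cells, 3.01 ± 0.61 (adjusted p = 0.0018), and by 1.13 ± 0.61 without passing in LacZ cells.

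SCARNA18 fell in both lines. RBMS3 cells had 17.2, 16.03 and 16.4 at 0 min, 14.2, 8.48 and 13.8 at 90 min, 2.30, 0 and 3.64 at 180 min, then 4.74, 0 and 0 at 360 min, and LacZ cells had 34.8, 73.7 and 43.5 at 0 min, 44.9, 22.0 and 18.7 at 90 min, 5.70, 0.946 and 5.69 at 180 min, then 2.04, 8.66 and 5.78 at 360 min. The 360 min libraries lay below the 0 min libraries in each line, with changes of -3.29 ± 0.72 (adjusted p = 0.0011) in RBMS3 cells and -3.07 ± 0.72 (adjusted p = 0.003) in LacZ cells.

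Among spliceosomal RNAs, U1 and the U6 copy RNU6-37P rose in both lines by 360 min. RNU1-1 had 22.5, 24.5 and 32.9 at 0 min, 279, 164 and 179 at 90 min, 216.5, 133 and 238 at 180 min, then 259, 304 and 239 at 360 min in RBMS3 cells. It had 92.0, 102 and 40.5 at 0 min, 117, 181 and 42.2 at 90 min, 91.2, 201 and 229 at 180 min, then 497, 532 and 487 at 360 min in LacZ cells. At 0 min all RBMS3 libraries lay below all LacZ libraries, and at 360 min they did so again. The difference was -1.43 ± 0.43 (adjusted p = 0.013) at 0 min and -0.92 ± 0.43 at 360 min, where it did not pass. U1 rose by 2.89 ± 0.43 (adjusted p = 8.7e-05) by 90 min in RBMS3 cells, and rose by 360 min in both lines, by 3.29 ± 0.43 (adjusted p = 4.6e-06) in RBMS3 cells and 2.78 ± 0.43 (adjusted p = 6.1e-05) in LacZ cells. RNU6-37P rose by 360 min, 4.22 ± 1.27 (adjusted p = 0.013) in RBMS3 cells and 5.19 ± 1.27 (adjusted p = 0.0042) in LacZ cells, and 1 library of each line was at 0 at 0 min. The RNU6-37P call was lost in RBMS3 cells without RBMS3 replicate 2 at 0 min (adjusted p = 0.11) and in LacZ cells with only the 2 groups in the fit (adjusted p = 0.067). The difference of U1 at 0 min lost its call without LacZ replicate 2 at 0 min (adjusted p = 0.06).

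RNU2-1, the U2 RNA that recognises the branch point, fell by 90 min in both lines. It had 146, 204 and 112 at 90 min and 229.7, 349.8 and 362 at 0 min in RBMS3 cells, and 54.4, 124 and 84.4 at 90 min and 222, 213 and 199 at 0 min in LacZ cells. The 90 and 0 min libraries did not overlap in either line. The change by 90 min was -1.04 ± 0.31 (adjusted p = 0.026) in RBMS3 cells and -1.34 ± 0.31 (adjusted p = 0.011) in LacZ cells, and by 360 min it was 0.03 ± 0.31 in RBMS3 cells, without passing, and 1.02 ± 0.31 (adjusted p = 0.016) in LacZ cells. The 360 min call in LacZ cells was lost with equal sums, with ribosomal protein scaling or without LacZ replicate 1 at 360 min (adjusted p up to 0.23). The 90 min call was lost in RBMS3 cells without RBMS3 replicate 2 or 3 at 0 min or without RBMS3 replicate 1 or 3 at 90 min (adjusted p up to 0.12). In LacZ cells it was lost with only the 2 groups in the fit or without LacZ replicate 1 at 90 min (adjusted p up to 0.12). RNU4ATAC, a U RNA of the minor spliceosome that removes rare introns, had 3084, 3324 and 2901 at 360 min and 4470.2, 5331 and 5092 at 0 min in RBMS3 cells, and 5175, 5299 and 2971 at 360 min and 3550.4, 3457 and 2658 at 0 min in LacZ cells. Its lines were apart at 0 min and overlapped at 360 min, and it fell by 360 min in RBMS3 cells, -0.68 ± 0.23 (adjusted p = 0.027). That call was lost without RBMS3 replicate 2 or 3 at 0 min or without RBMS3 replicate 1 or 3 at 360 min (adjusted p up to 0.082). The sources used here do not say whether counting used strand. Reads of a member and of a gene over it on the opposite strand may therefore not be told apart. This applies to 19 of 76 members, among them SNORD13 inside TTI2, RN7SL1 inside RPS29 and SNORA7A inside CAND2. RNU4ATAC, inside CLASP1, is another of the 19. RNU6ATAC, its partner in the minor spliceosome and named after its values were seen, rose by 360 min in both lines, 2.24 ± 0.52 (adjusted p = 0.0018) in RBMS3 cells and 2.62 ± 0.52 (adjusted p = 7.1e-04) in LacZ cells.

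The 5S RNA, a part of the large ribosomal subunit, rose in both lines and more in LacZ cells. RNA5S1 had 42.9, 29.2 and 58.5 at 0 min, 186, 129 and 182 at 90 min, 149, 164 and 176 at 180 min, then 313, 324 and 327 at 360 min in RBMS3 cells. It had 57.2, 28.7 and 58.3 at 0 min, 122, 170.2 and 76.6 at 90 min, 268, 350.0 and 325 at 180 min, then 1460.5, 1472 and 1180.2 at 360 min in LacZ cells. The lines overlapped at 0 and 90 min, and at 180 and 360 min all RBMS3 libraries lay below all LacZ libraries. The rise by 360 min was 2.91 ± 0.28 (adjusted p = 9.8e-08) in RBMS3 cells and 4.87 ± 0.28 (adjusted p = 1.0e-10) in LacZ cells, and the difference between the 2 changes was -1.96 ± 0.40 (adjusted p = 0.004).

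Both main 7SL RNAs were higher in RBMS3 cells before actinomycin D. By 360 min both had fallen there and risen in LacZ cells, where the rise of RN7SL1 did not pass with ribosomal protein scaling. RN7SL1 had 657, 717 and 762 at 0 min, 653, 569.6 and 458 at 90 min, 561, 658 and 613 at 180 min, then 290.2, 527 and 438 at 360 min in RBMS3 cells. It had 224, 422 and 269 at 0 min, 554, 505 and 502 at 90 min, 842, 629 and 563 at 180 min, then 616, 536 and 489 at 360 min in LacZ cells. RN7SL2 had 398, 458 and 413 at 0 min, 349, 437 and 355 at 90 min, 387, 376 and 387 at 180 min, then 247, 339 and 334 at 360 min in RBMS3 cells. It had 218, 282 and 187 at 0 min, 377, 396 and 284 at 90 min, 437, 371 and 436 at 180 min, then 547, 434 and 569.9 at 360 min in LacZ cells. For both the lines were apart at 0 min with RBMS3 above, and RN7SL2 was apart at 360 min with RBMS3 below. At 0 min the difference was 1.27 ± 0.21 (adjusted p = 7.8e-05) for RN7SL1 and 0.90 ± 0.17 (adjusted p = 2.0e-04) for RN7SL2. By 360 min RN7SL1 fell in RBMS3 cells, -0.81 ± 0.21 (adjusted p = 0.0055), and rose in LacZ cells, 0.89 ± 0.21 (adjusted p = 0.0038). RN7SL2 fell in RBMS3 cells, -0.48 ± 0.17 (adjusted p = 0.029), and rose in LacZ cells, 1.18 ± 0.17 (adjusted p = 1.9e-05). The difference between the changes was -1.69 ± 0.30 (adjusted p = 0.0013) for RN7SL1 and -1.66 ± 0.24 (adjusted p = 1.3e-04) for RN7SL2. RN7SL3 was lower in RBMS3 cells, with differences of -1.36 ± 0.51 (adjusted p = 0.04) at 0 min and -2.03 ± 0.51 (adjusted p = 0.0036) at 360 min. In RBMS3 cells the call was lost for RN7SL1 without RBMS3 replicate 1 at 360 min (adjusted p = 0.051). For RN7SL2 it was lost without RBMS3 replicate 2 or 3 at 0 min or without RBMS3 replicate 1 at 360 min (adjusted p up to 0.17). The LacZ rise of RN7SL1 lost its call with ribosomal protein scaling or with only the 2 groups in the fit (adjusted p up to 0.25). The 0 min difference of RN7SL3 lost its call with no filter on low values, with only the 2 groups in the fit, without RBMS3 replicate 2 at 0 min or without LacZ replicate 2 at 0 min (adjusted p up to 0.34).

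The copies named P that passed the test after actinomycin D had all fallen by 360 min, 10 of 26 in RBMS3 cells and 6 of 26 in LacZ cells, with medians over the 26 of −1.30 in RBMS3 cells and −0.79 in LacZ cells. Of all genes 18.6% fell in RBMS3 cells and 13.6% in LacZ cells. The summed normalized count of the 26 copies was 952 to 1215 at the later times and 2120 to 2271 at 0 min in RBMS3 cells, without overlap. In LacZ cells it was 1081 to 1467 at the later times and 1727, 2845 and 1464 at 0 min, so the times overlapped and replicate 2 lay highest at 0 min. RN7SL121P had 33.2, 25.1 and 28.9 at 360 min and 90.2, 124 and 116 at 0 min in RBMS3 cells, and 18.4, 37.5 and 47.4 at 360 min and 84.5, 109 and 71.2 at 0 min in LacZ cells. The times did not overlap in either line, and the change was -1.88 ± 0.39 (adjusted p = 6.6e-04) in RBMS3 cells and -1.41 ± 0.39 (adjusted p = 0.0096) in LacZ cells. RN7SL524P changed by -1.58 ± 0.33 (adjusted p = 8.2e-04) in RBMS3 cells and -1.26 ± 0.33 (adjusted p = 0.0071) in LacZ cells. By the same time RN7SL134P changed by -1.14 ± 0.34 (adjusted p = 0.011) in RBMS3 cells and -1.38 ± 0.34 (adjusted p = 0.0041) in LacZ cells. RN7SL602P, the copy of highest mean, averaged 561 ± 69.1 at 0 min and 378 ± 94.0 at 360 min in RBMS3 cells. In LacZ cells it averaged 476 ± 16.2 and 350 ± 62.6 at these times (SD, n = 3 each). Its fall in RBMS3 cells lost the call without RBMS3 replicate 2 or 3 at 0 min or without RBMS3 replicate 2 at 360 min (adjusted p up to 0.13). Of 15 copies with at least 10 A in a row 6 fell in RBMS3 cells and 3 in LacZ cells, and of 11 with shorter runs 4 and 3 did. Between the lines 1 of 26 differed at 0 min, RN7SL274P at 1.06 ± 0.30 (adjusted p = 0.0083), a call lost with ribosomal protein scaling or with only the 2 groups in the fit (adjusted p up to 0.073). Of all genes 37.5% differed between the lines at 0 min. In LacZ cells the call was lost for RN7SL121P with only the 2 groups in the fit or without LacZ replicate 1 at 360 min (adjusted p up to 0.07). For RN7SL524P it was lost with only the 2 groups in the fit or without LacZ replicate 2 at 0 min (adjusted p up to 0.095). In RBMS3 cells it was lost for RN7SL134P without RBMS3 replicate 1 at 0 min or without RBMS3 replicate 1 at 360 min (adjusted p up to 0.054). Of the 26, 11 lie inside a gene on the same strand and their tags may also come from that gene's unspliced RNA, which was not tested.

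**Figure D4:**
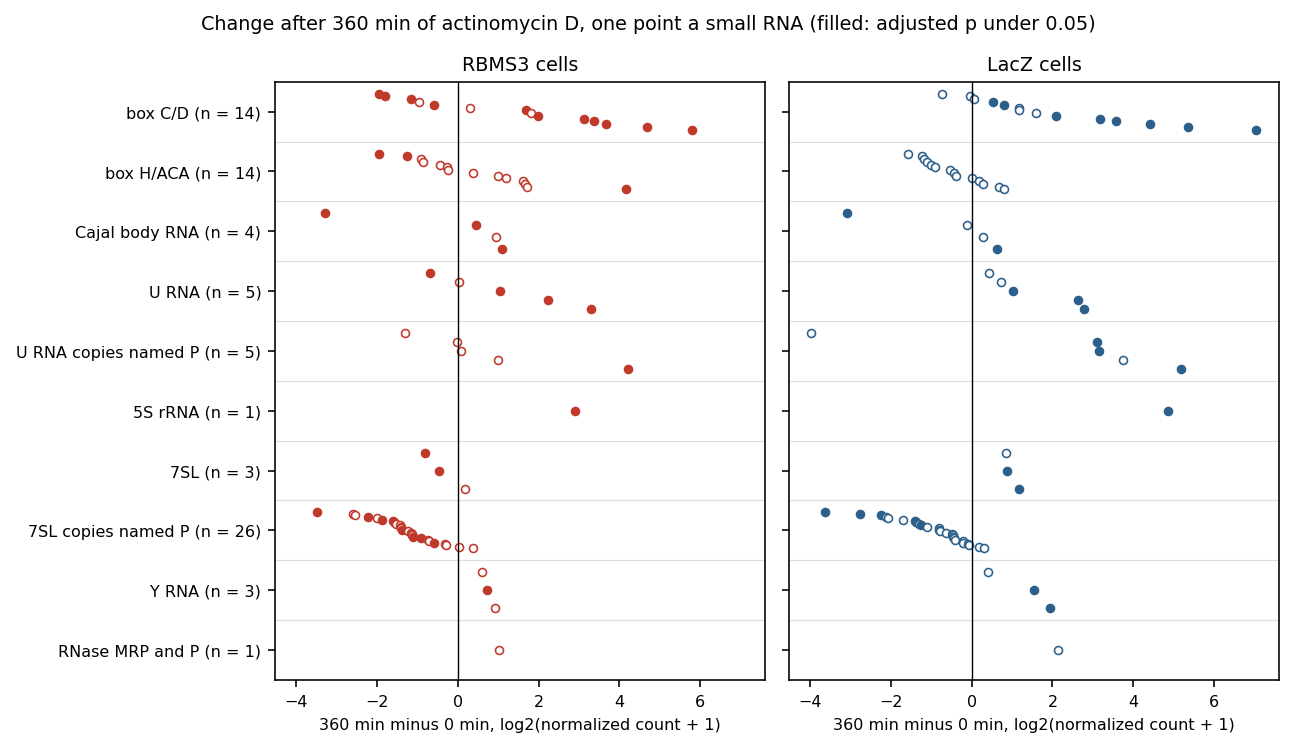
Change from 0 to 360 min of actinomycin D on the log2(normalized count + 1) scale for each of the 76 small RNAs by class, in RBMS3 cells (left) and LacZ cells (right). Each point is 1 RNA, filled where the adjusted p was under 0.05. All filled 7SL copies named P lie left of 0 in both panels, and 4 box C/D snoRNAs left of 0 are filled in RBMS3 cells.

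Y RNAs, which bind the Ro and La proteins, differed among themselves. RNY1 had 104, 93.3 and 85.2 in RBMS3 cells and 26.5, 56.3 and 28.7 in LacZ cells at 0 min, without overlap, a difference of 1.397 ± 0.27 (adjusted p = 3.7e-04). It rose by 360 min in LacZ cells, 1.55 ± 0.27 (adjusted p = 2.4e-04), while the RBMS3 change of 0.60 ± 0.27 did not pass. RNY3 had 76.8, 54.5 and 82.4 in RBMS3 cells and 137, 159 and 153 in LacZ cells at 360 min, again without overlap, a difference of -1.08 ± 0.27 (adjusted p = 0.0039). It rose by 360 min in both lines, by 0.72 ± 0.27 (adjusted p = 0.042) in RBMS3 cells and 1.94 ± 0.27 (adjusted p = 1.9e-05) in LacZ cells. The RBMS3 call was lost with no filter on low values, with equal sums, with ribosomal protein scaling, with the replicate block, with only the 2 groups in the fit, without RBMS3 replicate 1, 2 or 3 at 0 min or without RBMS3 replicate 1 or 3 at 360 min (adjusted p up to 0.39). RNY4 was higher in RBMS3 cells at 180 min, 2.02 ± 0.51 (adjusted p = 0.0039). RMRP, the RNA of RNase MRP, ranged over 0 to 24.7 in RBMS3 libraries and 0 to 27.4 in LacZ libraries, and passed no test.

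Whether the lines changed differently was tested directly. The difference in the change by 360 min, RBMS3 minus LacZ, passed for 5 members, all lower (4.32% of all genes higher and 3.46% lower, 7.77% together): RNA5S1, RN7SL1, RN7SL2, RNU4ATAC and SNORD26. The difference in slope over the 4 times passed for 7, all lower (2.93% of all genes higher and 2.24% lower, 5.18% together): those 5, SNORD3C and RNY3. RNA5S1 had a slope difference of -0.39 ± 0.06 (adjusted p = 9.5e-04) log2 per hour, RN7SL2 of -0.26 ± 0.04 (adjusted p = 2.6e-04) and RN7SL1 of -0.25 ± 0.05 (adjusted p = 0.0034). Without LacZ replicate 2 at 0 min, 10 members passed for the 360 min change and 8 for the slope.

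Estimated read counts were tested with edgeR in RBMS3 cells, where the 90, 180 and 360 min libraries have a transcript file whose name matches the sample. From 90 to 180 min 1 member rose and 2 fell (0.0601% and 0.878% of all genes, 0.938% together), and with any 1 library left out 0 or 1 member passed. From 90 to 360 min 8 rose and 4 fell (5.54% and 8.84% of all genes, 14.4% together). SNORD13 had 3616, 3810 and 3885 estimated reads at 360 min and 1807, 2052 and 2640 at 90 min, without overlap, a log2 difference of 1.03 ± 0.13 (adjusted p = 0.00017). SNORD3C had 725, 680 and 747 estimated reads at 360 min and 2422, 1925 and 3632 at 90 min, also without overlap, a log2 difference of −1.66 ± 0.19 (adjusted p = 7.6e-05). SNORD46 (1.73), SNORD3A (1.34), RNA5S1 (0.93) and SNORD87 (1.04) rose by these log2 differences, and SCARNA22 (−0.93), SNORA12 (−1.29) and SNORA79B (−1.38) fell.

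For 36 members the gene over them on the same strand was itself tested. Of the 14 such members that differed between the lines at 0 min, the host differed in the same direction for 3, in the opposite direction for 2 and did not pass for 9. Of all genes 18.6% were higher and 18.9% lower at 0 min, 37.5% together. The host counts lie near those shares, and nothing is read from them alone. SNORA62 was lower in RBMS3 cells at 0 min, a difference of −3.22, where its host RPSA, a ribosomal protein gene, was higher, at 0.60. RPSA averaged 8172 ± 295 in RBMS3 cells and 5442 ± 931 in LacZ cells (SD, n = 3 each). SNORA79B differed by −2.08, and its host CCNB1IP1 by 0.44 without passing. SNORA67 and SNORD87 were lower in RBMS3 cells at 0 min, and so were the means of their hosts. EIF4A1, a host of SNORA67, averaged 3307 ± 430 in RBMS3 cells and 5794 ± 940 in LacZ cells at 0 min. At 0 min SNHG6, the host of SNORD87, averaged 768 ± 106 in RBMS3 cells and 1359 ± 478 in LacZ cells, with overlap. At 360 min SNHG6 averaged 969 ± 83.4 and 1906 ± 68.4 (SD, n = 3 each). For SNORD26 and its host SNHG1 the difference in the 360 min change had opposite signs, −1.11 for SNORD26 and 1.35 for SNHG1 (limma adjusted p = 0.00058). SNHG1 averaged 762 ± 50.1 at 360 min and 663 ± 65.9 at 0 min in RBMS3 cells, and 513 ± 35.4 at 360 min and 1145 ± 216.9 at 0 min in LacZ cells (SD, n = 3 each).

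Proteins that bind, make or trim these RNAs were counted by the same limma test. Before actinomycin D, 18.6% of all genes were higher in RBMS3 cells and 18.9% were lower. By 360 min 19.1% of all genes rose and 18.6% fell in RBMS3 cells. In LacZ cells 14.9% rose and 13.6% fell. With 7 to 22 genes a list, several counts lie near those shares, and nothing is read from the counts alone. Of 9 tested genes of the box H/ACA particle and Cajal body, at 0 min RBMS3 cells had 2 higher and 3 lower. DKC1, the pseudouridine synthase of box H/ACA particles, averaged 5283 ± 265 at 360 min and 2588 ± 171 at 0 min in RBMS3 cells, and 5444 ± 393 at 360 min and 7364 ± 2450 at 0 min in LacZ cells (SD, n = 3 each). It was lower in RBMS3 cells at 0 min, a difference of −1.46 (adjusted p = 1.8e-07), and rose by 1.03 by 360 min in RBMS3 cells (adjusted p = 2.1e-05). TCOF1, which acts in ribosomal RNA transcription, was lower at −1.26 and WRAP53, which brings Cajal body RNAs to Cajal bodies, at −1.10, and NOP10, a small protein of the box H/ACA particle, was higher at 1.14. Whether these levels have a part in the lower box H/ACA snoRNAs was not tested.

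Among 14 genes of box C/D particles and their assembly 1 was higher and 6 were lower in RBMS3 cells at 0 min. By 360 min 7 rose and 2 fell in RBMS3 cells, and 6 rose and 2 fell in LacZ cells. Of 17 Sm and LSm proteins, which bind spliceosomal RNAs and U6, 13 rose and 1 fell in RBMS3 cells and 12 rose and 1 fell in LacZ cells by 360 min. Of 8 signal recognition particle genes RBMS3 cells had 2 higher and 1 lower at 0 min, among them SRP9, which binds 7SL, at 0.85. For RNA polymerase III and its factors, 22 genes, RBMS3 cells had 2 higher and 2 lower at 0 min, and GTF3A, the factor for 5S genes, was higher by 0.60. By 360 min 6 of the 22 rose and 5 fell in RBMS3 cells, and 1 rose and 4 fell in LacZ cells. Of 22 genes of the nuclear exosome and 3' trimming, RBMS3 cells had 2 higher and 4 lower at 0 min, and 6 rose and 6 fell in RBMS3 cells and 3 rose and 3 fell in LacZ cells by 360 min. RNase P and MRP proteins had 1 higher and 3 lower of 10 at 0 min, SNAPc and Integrator genes 6 higher and 4 lower of 19, 7SK particle genes 1 and 1 of 7, and Y, vault and La proteins 1 and 1 of 7.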

How the data were processed

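The authors deposited, for the series, a table of normalized counts per gene (a signal, not whole counts) for 24 libraries and, per library, estimated counts per transcript. Trim Galore 0.6.6, DESeq2 1.32.0 and Salmon 1.4.0 are named in the submitters' processing notes, and the sources used here give neither genome build nor annotation. QuantSeq 3' mRNA-seq libraries were read with 75 bp single reads, per the labels' protocols. Table columns were matched to samples by title. For 12 of 24 samples the attached transcript file bears another sample's name, so estimated counts were used only for the other 12 libraries (4426440 to 9856340 estimated reads each), rounded to whole numbers and summed per gene. For 580 pairs of a member and a library, 91.0% of the ratios of table value to estimated reads lay within 1% of the library's median.

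The test between groups was limma 3.58.1 (R 4.3.3) with a mean-variance trend and without robust estimation, applied to log2(normalized count + 1). The fit held 8 group means and 12096 genes of mean at least 10, and Benjamini-Hochberg adjustment over all of them (threshold 0.05). Estimated counts were tested with edgeR 4.0.16 (quasi-likelihood, 13320 genes), with DESeq2 1.42.0 as an alternative. Both fits were tested on simulated data with known changes. Named members are the 3 of highest mean per class and, per comparison, up to 10 with the largest difference past the test whose libraries did not overlap and whose higher group averaged at least 50. The members, lists and tests were chosen with earlier results of these data known.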

Additional observations from a re-analysis of the deposited data

Results flagged for a closer look

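For 7 members the difference between the lines in what happened after actinomycin D passed its own test. Each difference between the changes, RBMS3 minus LacZ, was negative, which does not describe the levels. Of all genes 7.77% passed for the 360 min change (3.46% lower) and 5.18% for the slope (2.24% lower). Beside these shares 5 and 7 of 76 members passed, and nothing is read from the counts alone. The change by 360 min in RBMS3 cells minus that in LacZ cells was −1.96 for RNA5S1, −1.69 for RN7SL1, −1.66 for RN7SL2, −1.12 for RNU4ATAC and −1.11 for SNORD26. The slope difference in log2 per hour was −0.39 for RNA5S1, −0.26 for RN7SL2, −0.25 for RN7SL1, −0.23 for RNY3, −0.21 for SNORD3C, −0.20 for RNU4ATAC and −0.19 for SNORD26. RN7SL1 and RN7SL2 are near-identical and are not separate evidence. SNORD3C lost its call in 24 of its alternatives, RNU4ATAC in 10 for the slope and 11 for the 360 min change, and RNY3 in 8.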

How the results depend on the processing

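Of 186 calls on named members, recomputed under the alternatives, 2540 of 2907 values kept their direction and their side of the threshold, 366 kept the direction but no longer passed, and 1 reversed: SNORD26 in LacZ cells by 360 min, at −0.024 with libraries scaled to ribosomal protein genes; the cause was not tested. Counts of members called moved by over 1.5 times in these cases and once with the replicate block (below), and for no other alternative that kept all libraries. With a mean of at least 50, which tests 35 members, 13 differed between lines at 0 min and 14 at 360 min, against 23 and 22. With only the groups of the contrast in the fit, LacZ cells gave 2 at 90 min, 11 at 180 min and 16 at 360 min, against 13, 19 and 27. With no filter on low values the slope difference gave 4, against 7. With no filter on low counts edgeR gave 6 from 90 to 180 min and 19 from 90 to 360 min, against 3 and 12.

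Leaving out 1 library at a time gave 20 to 23 members between lines at 0 min, 5 to 9 at 90 min, 7 to 13 at 180 min and 17 to 19 at 360 min. It gave 15 to 19, 24 to 27 and 22 to 31 in RBMS3 cells at 90, 180 and 360 min, and 7 to 11, 16 to 19 and 21 to 27 in LacZ cells. It gave 4 to 8 for the slope difference, 4 to 10 for the difference in the 360 min change, and 0 to 1 and 8 to 12 for edgeR from 90 to 180 min and from 90 to 360 min. Counts moved by over 1.5 times without LacZ replicate 1 at 90 min (5 between lines at 90 min, 7 in LacZ cells by 90 min), LacZ replicate 3 at 90 min (8 in LacZ cells by 90 min), LacZ replicate 1 at 180 min (7 between lines), RBMS3 replicate 1 at 360 min (22 in RBMS3 cells) and LacZ replicate 2 at 0 min (10 for the 360 min change). For the slope, 4 remained called without RBMS3 replicate 2 at 360 min, LacZ replicate 3 at 0 min, or LacZ replicate 1 or 2 at 360 min.

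The replicate numbers do not pair the samples: over 84 same-numbered pairs the correlation of deviations was −0.11 to 0.12, with 1 over 0.1. With the replicate block 6 of 186 calls on named members no longer passed, edgeR from 90 to 180 min gave 1 member against 3, and the other counts stayed within 1.5 times. Depth limits the low members, whose zeros cannot be told from absence.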
